A study of Homo sapiens with 7 samples.

Results

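The ATF4 stress response was described here through 10 genes, ATF4, ATF3, DDIT3, DDIT4, ASNS, TRIB3, CHAC1, SESN2, PSAT1 and PHGDH. These genes were chosen by name and by no cutoff on their values, with earlier results of these data known. They were 10 of 22670 genes listed in each deposited table, of which 20187 lay on the chromosomes. Each name had 1 entry, so all 10 members were measured in all 7 libraries and none was listed at 0. RNA-seq had been carried out on SEES-3 human embryonic stem cells (hESCs), an established line that carried the reverse Tet-transactivator and a piggyBac vector whose Tet-responsive promoter drives HA-tagged JMJD3c, the catalytic domain of the H3K27 demethylase JMJD3 with a nuclear localisation signal. The JMJD3c mut-hESCs carried the same vector with a point mutation that inactivates the enzyme. The JMJD3c-hESCs were sampled before doxycycline (Dox, 1 µg/ml) and at Days 1, 2, 3 and 4 of Dox, and the JMJD3c mut-hESCs without Dox, with no day given, and at Day 4 of Dox.

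All 7 libraries shared the transactivator, the puromycin-selected transgene with its βgeo marker, and feeder-free culture in StemFit on a laminin fragment, and every treated library of either line had Dox itself in the medium. There was 1 library for each condition, so no difference was tested and no p-value is given. Day 0 was the only untreated library of the JMJD3c line, and the untreated mutant library has no day. Dox and days in culture can therefore not be told apart. The lines came from stable clones, and a difference between the untreated libraries of the 2 lines shows how far the members differed without Dox, although it is no replicate. KDM6B, the gene of JMJD3, was at 3.45 FPKM at Day 0 and at 158.2 to 282.2 FPKM on Days 1 to 4, and went from 2.40 to 454.2 FPKM in the mutant line, so that it was higher with Dox in both. Reads of the transgene and of the cells' own KDM6B cannot be told apart. The pluripotency genes POU5F1, NANOG, SOX2, LIN28A and DNMT3B summed to 1411 to 1974 FPKM in all 7 libraries, which fitted the hESC label, and all 5 were lower with Dox in both lines, SOX2 and DNMT3B past the call at Day 4 in the JMJD3c line. The 8 mesendoderm markers (T, MIXL1, EOMES, SOX17, FOXA2, GATA4, GATA6 and CER1) summed to 5.49 FPKM at Day 0 and 309.8 FPKM at Day 4, with 8 of 8 called higher, against 10.9 and 7.83 FPKM in the mutant line. These markers moved with the days of Dox in the JMJD3c line, and their part in the members' values was not tested. The neuroectoderm markers PAX6 and SOX1 summed to 0.677 to 10.1 FPKM and the trophoblast markers CDX2 and GATA3 to 0.146 to 2.79 FPKM. The fibroblast markers DCN and LUM were listed at 0 in every library, and COL1A1 was at 4.18 to 11.3 FPKM. In bulk RNA, fewer cells that express a gene and less RNA per cell cannot be told apart.

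In the integrated stress response, kinases that sense amino acid shortage, misfolded protein in the endoplasmic reticulum, haem shortage or double-stranded RNA phosphorylate the translation factor eIF2. General translation then falls while the ATF4 mRNA is translated better, and the ATF4 protein, a bZIP transcription factor, switches on genes for amino acid synthesis and uptake, tRNA charging and, under lasting stress, cell death. Tetracyclines such as Dox can slow translation in mitochondria, which is known to engage this response in many cell types. Much of the control of ATF4 acts on its translation, which mRNA levels do not show.

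ATF4 binds with a partner to composite sites known as CARE, and hypoxia-inducible factor HIF1 binds a short hypoxia response element. The promoter of DDIT4 is shown because the largest difference with Dox lay in this gene, and stretches of the ASNS, ATF3 and CHAC1 promoters because they were the members' windows with a CARE match. The sequences are RefSeq promoter windows of 250 bases before to 50 after the start site, and each matched the GRCh37 genome, the assembly of hg19, in 1 place. The letters searched, on both strands, were TGATGNAA for CARE, TGACGTCA for the cyclic AMP response element (CRE) and ACGTG for the hypoxia element. The last was added after the values were seen. No match overlapped a match of another motif, and a match describes the letters and is no binding site.
DDIT4, chr10:74033432-74033731, plus strand, the whole window, with ACGTG in capitals.
DDIT4: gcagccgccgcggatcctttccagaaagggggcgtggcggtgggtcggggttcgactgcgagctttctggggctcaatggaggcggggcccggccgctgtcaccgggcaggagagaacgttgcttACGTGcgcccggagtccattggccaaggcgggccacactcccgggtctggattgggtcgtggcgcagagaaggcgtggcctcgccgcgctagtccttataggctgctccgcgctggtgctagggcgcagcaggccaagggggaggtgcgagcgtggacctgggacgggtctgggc
ASNS, chr7:97501741-97501828, minus strand, with the CARE match and 40 bases on each side.
ASNS: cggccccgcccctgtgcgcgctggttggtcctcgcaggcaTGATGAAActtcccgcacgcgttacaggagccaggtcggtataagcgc
ATF3, chr1:212738518-212738605, plus strand, likewise.
ATF3: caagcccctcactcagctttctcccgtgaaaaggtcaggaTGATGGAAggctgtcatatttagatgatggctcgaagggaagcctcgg
CHAC1, chr15:41245420-41245507, plus strand, likewise, with the match on the opposite strand.
CHAC1: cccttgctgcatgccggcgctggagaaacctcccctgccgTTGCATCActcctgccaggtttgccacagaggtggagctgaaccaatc

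Of the 16 promoter windows of the 10 members, 3 held a CARE match, at positions -68 (ASNS), -191 (ATF3) and -209 (CHAC1) from the start site, against 3.62% of all 35116 windows. None of the 16 held the CRE letters, which stood in 1.85% of all windows. ACGTG stood in 3 of the 16, the 1 of DDIT4 (position -125) and both of ATF4, against 21.41% of all windows. Both ATF4 windows overlap and hold the same match, so that by gene ACGTG stood in 2 of 10. No CARE match stood in the window of DDIT4, the gene with the largest difference under Dox. The ACGTG letters were shared by DDIT4, which was lower with Dox in both lines, and ATF4, which passed no call. Any bearing of these letters on the members' values was not tested.

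At Day 4 of Dox, the response genes did not move together. DDIT4, an inhibitor of mTORC1 signalling, was 7.52-fold lower at Day 4 than at Day 0 and 4.67-fold lower with Dox in the mutant line, the only member called in both lines. DDIT3, which encodes the pro-apoptotic factor CHOP, was called higher at Day 4 in the JMJD3c line, from a low level. The other 8 members passed no call in either of these comparisons, and ATF4 itself was at 0.859 and 0.971 of its untreated level. A gene was called higher at a ratio over 2 with more than 4 FPKM (fragments per kilobase of transcript, scaled to the mapped fragments of the library) in the treated library, and lower at a ratio under 0.5 with more than 4 FPKM in the untreated library. Among 10247 genes above 4 FPKM in either library, 5.87% were called higher and 7.56% lower at Day 4, so that 1 of 10 members higher and 1 of 10 lower was near the background. In the mutant line 1.25% of 9736 genes were called higher and 1.53% lower, beside 0 and 1 of the 10 members. Only 8 of the 10 members lay above 4 FPKM in either library of the mutant line, as the 9736 genes did. The ranges given below are the 95% intervals that Cufflinks deposited with each FPKM, which cover the reads of that library and no variation between cultures.

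**Figure D1:**
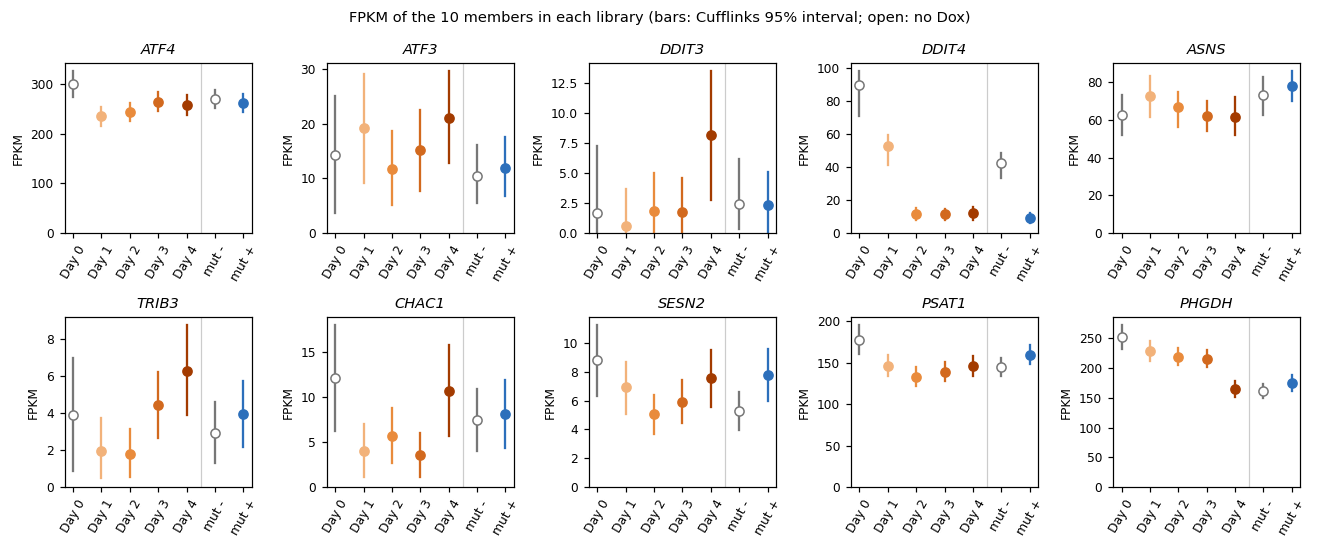
FPKM of each member (vertical axis, from 0) in the 5 JMJD3c-hESC libraries and the 2 JMJD3c mut-hESC libraries (mut - without Dox, mut + with Dox). Points are the deposited FPKM and bars the Cufflinks 95% intervals, open points are untreated; DDIT4 lies at 11.3 to 11.9 FPKM from Day 2 on and at 9.08 FPKM in the mutant line with Dox, below both untreated libraries.

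DDIT4 (ENSG00000168209, chromosome 10, 74033678 to 74035794), also known as REDD1, was at 89.8 FPKM (71.02 to 98.01) at Day 0, 52.7 (41.4 to 59.2) at Day 1, 11.6 (8.17 to 15.1) at Day 2, 11.3 (7.98 to 14.3) at Day 3 and 11.9 (7.98 to 15.7) at Day 4. In the JMJD3c mut-hESCs it was at 42.4 FPKM (33.5 to 48.6) without Dox and 9.08 (6.07 to 11.95) with Dox. The 4 libraries with at least 2 days of Dox were the low ones, and their intervals overlapped none of those of the other 3 libraries. Without an untreated library known to be of the same day, Dox and days in culture cannot be told apart here. The Day 4 to Day 0 ratio was 0.133, for which the intervals allow 0.0814 to 0.221, and the log2 fold change with a pseudocount of 1 FPKM was -2.81. In the mutant line the ratio was 0.214 (0.125 to 0.357) and the log2 fold change -2.10. With 4 days of Dox in both lines, the JMJD3c line was at 1.32 of the mutant line, and the overlapping intervals allow 0.668 to 2.59.

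The untreated libraries also differed in DDIT4. The mutant line without Dox stood at 0.472 of Day 0, intervals apart, which is itself a call, and 7.01% of 10051 genes were called lower and 2.78% higher in that comparison. The choice of untreated library therefore moved the size of the difference and not its direction: against the untreated mutant line, Day 4 had a ratio of 0.282 and a log2 fold change of -1.74. Of 9450 genes above 4 FPKM in both comparisons, 535 were called lower at Day 4 in the JMJD3c line and 124 lower with Dox in the mutant line. The 32 called lower in both were 5.98% of the former, while 124 of all 9450 genes were called lower in the mutant line. They were 25.81% of the latter, while 535 of all 9450 genes were called lower at Day 4. DDIT4 had the 2nd largest fall of the 32 by the smaller of its falls in the 2 lines. These 2 comparisons share no library.

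ATF4 (ENSG00000128272, chromosome 22, 39915700 to 39918691) had the highest FPKM of the members in every library, with intervals that overlapped those of PHGDH at Days 1 and 2. It was at 300.6 FPKM at Day 0 (275.0 to 326.6), 235.7, 244.2, 265.2 and 258.3 (237.5 to 279.2) on Days 1 to 4, and 270.4 and 262.5 in the mutant line without and with Dox. Day 0 was the highest of the 7, and the intervals of Days 1 and 2 were apart from it while those of Days 3 and 4 overlapped it. The highest value was 1.28-fold the lowest, against a median of 1.64-fold over the 8355 genes above 4 FPKM in all 7 libraries. With Dox in the mutant line the log2 fold change was -0.04, and the intervals allow ratios of 0.844 to 1.12.

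ATF3 (ENSG00000162772), a stress-induced bZIP factor that ATF4 activates, was at 14.3 FPKM at Day 0, 19.1, 11.8, 15.1 and 21.1 on Days 1 to 4, and 10.4 and 11.8 in the mutant line without and with Dox. Day 4 was the highest and the untreated mutant line the lowest, but the Day 0 interval (3.68 to 25.0) overlapped that of every other library. The Day 4 to Day 0 ratio was 1.48 and the mutant ratio 1.14, neither a call. Against the untreated mutant line, Day 4 passed the call at a ratio of 2.04 with overlapping intervals. ATF3 is also an immediate early gene. Of 8 other immediate early genes all lay above Day 0 at Day 4 (median log2 fold change 0.70). FOS (6.81 to 13.7 FPKM), JUN (11.4 to 24.7) and EGR1 (2.11 to 13.6) were called higher, beside 5.87% of all genes. The intervals of FOS overlapped, and those of JUN and of EGR1 were apart. In the mutant line 4 of the 8 were higher and 4 lower, and none was called.

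DDIT3 (ENSG00000175197), the gene of CHOP, was at 1.68 FPKM at Day 0, 0.560, 1.85, 1.73 and 8.11 on Days 1 to 4, and 2.45 and 2.33 in the mutant line without and with Dox. Day 4 was the high library and the other 6 lay below 4 FPKM. The ratio of 4.83 to Day 0 (log2 fold change 1.77) rested on about 2.6 reads at Day 0 and about 17.1 at Day 4, as estimated from the longest transcript. The intervals, 0 to 7.21 and 2.79 to 13.5, overlapped, so that a ratio as low as 0.386 is allowed and no upper bound can be given. Day 4 was also called higher against the untreated mutant line (3.31) and against the mutant line with Dox (3.49), with overlapping intervals. DDIT3 shares 68 bases with MARS on the opposite strand, a gene at 91.7 to 114.7 FPKM, and the strand setting of the counting is not given in the sources used here. MARS was at its lowest at Day 4.

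TRIB3 (ENSG00000101255), a pseudokinase that ATF4 and CHOP induce and that dampens ATF4, was at 3.88 FPKM at Day 0, 1.96, 1.79, 4.43 and 6.25 on Days 1 to 4, and 2.93 and 3.94 in the mutant line without and with Dox. It was lowest at Days 1 and 2 and highest at Day 4, and the Day 0 interval (0.893 to 6.98) overlapped all others. No call was passed against Day 0, and the ratio of Day 4 to the untreated mutant line (2.14) passed it. CHAC1 (ENSG00000128965), which degrades glutathione and is a target of ATF4 and CHOP, was at 12.1 FPKM at Day 0, 4.03, 5.72, 3.57 and 10.7 on Days 1 to 4, and 7.43 and 8.12 in the mutant line without and with Dox. It was called lower at Days 1, 2 and 3 and not at Day 4, and only the Day 3 interval (1.18 to 5.95) was apart from that of Day 0 (6.19 to 17.9). The Day 3 ratio was 0.296, and CHAC1 rested on about 14.2 to 35.9 reads in each library.

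SESN2 (ENSG00000130766), a stress-inducible leucine sensor that restrains mTORC1 as DDIT4 does by another route, was at 8.82 FPKM at Day 0, 6.92, 5.06, 5.90 and 7.57 on Days 1 to 4, and 5.28 and 7.77 in the mutant line without and with Dox. With Dox it was at 0.859 of Day 0 in the JMJD3c line and at 1.47 of the untreated level in the mutant line, with overlapping intervals in each. Its values did not follow those of DDIT4, which were lower with Dox in both lines.

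The biosynthetic members were abundant and varied little. ASNS (ENSG00000070669), asparagine synthetase, was at 62.6 FPKM at Day 0, 72.5, 66.7, 62.2 and 61.4 on Days 1 to 4, and 73.1 and 77.9 in the mutant line without and with Dox. All intervals against Day 0 overlapped, and the log2 fold change at Day 4 was -0.03, a sign that turned under median-ratio scaling (0.03). PSAT1 (ENSG00000135069), the aminotransferase of serine synthesis, was at 177.6 FPKM at Day 0, 146.3, 133.1, 139.0 and 145.6 on Days 1 to 4, and 144.1 and 159.2 in the mutant line without and with Dox. PHGDH (ENSG00000092621), which catalyses the first step of serine synthesis, was at 251.7 FPKM at Day 0, 228.5, 218.8, 215.7 and 164.8 on Days 1 to 4, and 161.9 and 175.1 in the mutant line without and with Dox. Day 0 was the high library for both. Their Day 4 intervals were apart from Day 0, at ratios of 0.820 and 0.655, but Day 4 lay at 1.01 and 1.02 of the untreated mutant line, and with Dox in the mutant line the ratios were 1.10 and 1.08 with overlapping intervals. For PHGDH the Day 4 interval (150.8 to 179.0) also lay below those of Days 1, 2 and 3, while for PSAT1 the Day 4 interval (133.2 to 158.0) overlapped those of Days 1, 2 and 3.

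By level, in FPKM and so per length, the Day 0 order was ATF4, PHGDH, PSAT1, DDIT4, ASNS, ATF3, CHAC1, SESN2, TRIB3 and DDIT3. The intervals of DDIT4 and ASNS overlapped, as did those of each neighbour from ATF3 down, and the other neighbours were apart. At Day 4 DDIT4 had dropped from the 4th to the 6th place, where its interval overlapped those of ATF3 and CHAC1. Highest over lowest across the 7 libraries was 1.27 to 1.55 for ATF4, ASNS, PSAT1 and PHGDH, 1.74 for SESN2, 2.04 for ATF3, 3.38 for CHAC1, 3.50 for TRIB3, 9.89 for DDIT4 and 14.5 for DDIT3. Over the 8355 genes the 90th percentile was 2.41, and of the 4 members above it, DDIT3 and TRIB3 fell below 4 FPKM in some libraries, as CHAC1 did at Day 3.

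Over the days of Dox, members were called lower at first and 1 was called higher at Day 4. CHAC1 was called lower at Day 1, CHAC1 and DDIT4 at Days 2 and 3, and DDIT4 at Day 4. The counts of 1, 2, 2 and 1 lower compare with 3.27%, 4.24%, 4.48% and 7.56% of all genes, and the counts of 0, 0, 0 and 1 higher with 3.48%, 3.9%, 4.73% and 5.87%. The 4 comparisons share the Day 0 library, the shallowest of the 7 by estimated depth. Of the 10 members, 8, 8, 9 and 10 were above 4 FPKM in either library on Days 1 to 4, and their counts and medians use all 10. The members' median log2 fold change was -0.33, -0.36, -0.20 and -0.18 on Days 1 to 4, beside -0.03, -0.05, -0.01 and -0.06 for all genes above 4 FPKM. In the mutant line it was 0.11 beside 0.00, with 7 members above and 3 below the untreated library, whereas at Day 4 of the JMJD3c line 3 were above and 7 below Day 0. By intervals, 3 members were lower and 0 higher at Day 4, where 7% of all genes were apart and lower and 5.15% apart and higher, and 1 was lower and 0 higher in the mutant line, where the shares were 1.68% and 1.47%.

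Against the other libraries the members' picture changed. Day 4 against the untreated mutant line had 3 members called higher (ATF3, DDIT3 and TRIB3) and 1 lower (DDIT4), beside 7.05% and 3.9% of 10045 genes, and a median log2 fold change of 0.24. Between the 2 untreated libraries DDIT4 was the member called, and 8 of 10 were below Day 0 (median -0.37 on the log2 scale). Day 4 against the mutant line with Dox, both with 4 days of Dox, had DDIT3 called higher and 0 lower, beside 6.56% and 3% of 9999 genes, and no member's intervals were apart.

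**Figure D2:**
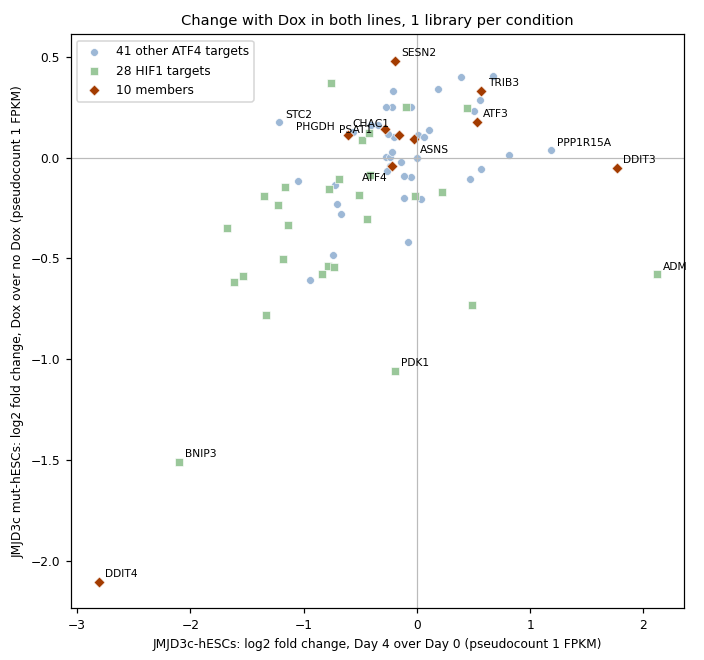
Log2 fold change with a pseudocount of 1 FPKM in JMJD3c-hESCs (Day 4 over Day 0, horizontal axis) and in JMJD3c mut-hESCs (Dox over no Dox, vertical axis), for the 10 members (diamonds), 41 other ATF4 targets (circles) and 28 HIF1 targets (squares). DDIT4 lies at -2.81 and -2.10 at the lower left with BNIP3 at -2.10 and -1.51, and the other members lie at -0.05 to 0.48 on the vertical axis.

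Of the other known ATF4 targets, 41 genes that are no member, most lay below Day 0 on every day of Dox. On Days 1, 2 and 3, 31, 35 and 30 were below Day 0 and 8, 4 and 9 above it, with medians of -0.13, -0.25 and -0.20 on the log2 scale, and 0, 4 and 2 were called lower and none higher. At Day 4, 26 were below and 13 above Day 0 (median -0.14), with 1 called higher and 3 lower. Of all genes, 3.27%, 4.24% and 4.48% were called lower on Days 1, 2 and 3. At Day 4 the shares of all genes were 5.87% higher and 7.56% lower. With Dox in the mutant line 16 were below and 23 above the untreated library, none was called and the median was 0.01. The untreated mutant line had 26 below and 13 above Day 0 (median -0.15), and the comparisons with Day 0 share that library. PPP1R15A, the phosphatase subunit that restores eIF2, was at 7.75 FPKM at Day 0 and 18.9 at Day 4, intervals apart, and at 7.38 and 7.60 in the mutant line. TARS, the threonyl-tRNA synthetase, was at 208.4 and 100.4 FPKM at Days 0 and 4, STC2, a secreted glycoprotein, at 20.7 and 8.36, and CTH, which makes cysteine, at 12.6 and 6.04. The intervals of TARS were apart, and those of STC2 and of CTH overlapped. Of 12 aminoacyl-tRNA synthetase genes 10 were below Day 0 at Day 4 (median -0.25) and 9 were above the untreated level in the mutant line (median 0.07). Of 8 amino acid transporter genes 6 were higher in each line (medians 0.33 and 0.17) with none called. All 6 serine, one-carbon and proline synthesis genes were below Day 0 (median -0.27) with none called, and 3 were higher and 3 lower in the mutant line (median 0.05). The remaining 15 targets had medians of -0.05 and -0.09. NUPR1 and FGF21, targets that mark a strong response in other tissues, were listed at 0 in all 7 libraries.

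Upstream of ATF4, 1 of 15 genes of the eIF2 arm was called at Day 4, lower, and none with Dox in the mutant line. Of all genes, 7.56% were called lower and 5.87% higher at Day 4, so that 1 of 15 was near the background. In the mutant line 1.53% were called lower and 1.25% higher. EIF2AK4, the kinase GCN2 that senses uncharged tRNA, went through 37.8, 34.7, 29.5, 25.4 and 18.6 FPKM on Days 0 to 4 and was at 40.7 and 41.2 FPKM in the mutant line. KIAA0141, which relays mitochondrial stress, was called lower at Day 1 (30.2 to 14.2 FPKM) and was at 22.97 FPKM at Day 4. The median of the arm was 0.02 in each line. In the ATF6 and XBP1 branches of the endoplasmic reticulum response, 14 of 15 genes were above Day 0 at Day 4 (median 0.34) and 12 of 15 above the untreated level in the mutant line (median 0.11). In the mutant line without Dox, 11 of the 15 lay above Day 0 (median 0.10), 4 of them with intervals apart. DNAJB9 was the gene called at Day 4, from 2.46 to 5.88 FPKM with overlapping intervals. HSPA5, the chaperone BiP, was at 156.9 and 247.3 FPKM and in the mutant line at 216.2 and 244.0, with intervals apart in both. None of 7 mitochondrial chaperone and protease genes was called in either line (medians -0.14 and -0.06). None of 13 mitochondrially encoded mRNAs was called at Day 4 or with Dox in the mutant line, while 11 were higher at Day 4 (median 0.30) and 12 in the mutant line (median 0.14). Without Dox these mRNAs also differed between the lines. In the untreated mutant line 10 of the 13 were below Day 0 (median -0.21), 8 with intervals apart, and 3 were called lower.

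Of 6 NRF2 targets, SRXN1 was called higher at Day 4 (11.7 to 24.5 FPKM) and none in the mutant line. All 7 p53 targets lay below Day 0 at Day 4, with MDM2 (50.05 to 23.62 FPKM) and BBC3 (11.3 to 4.52) called lower, and 4 of 7 were higher in the mutant line with none called. No p53 target had intervals apart at Day 4, where 7.56% of all genes were called lower and 5.87% higher. The untreated mutant line also had 5 of the 7 below Day 0 (median -0.41), with CDKN1A called lower. None of 8 paralogs of the members was called at Day 4 or in the mutant line (medians -0.21 and -0.26).

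**Figure D3:**
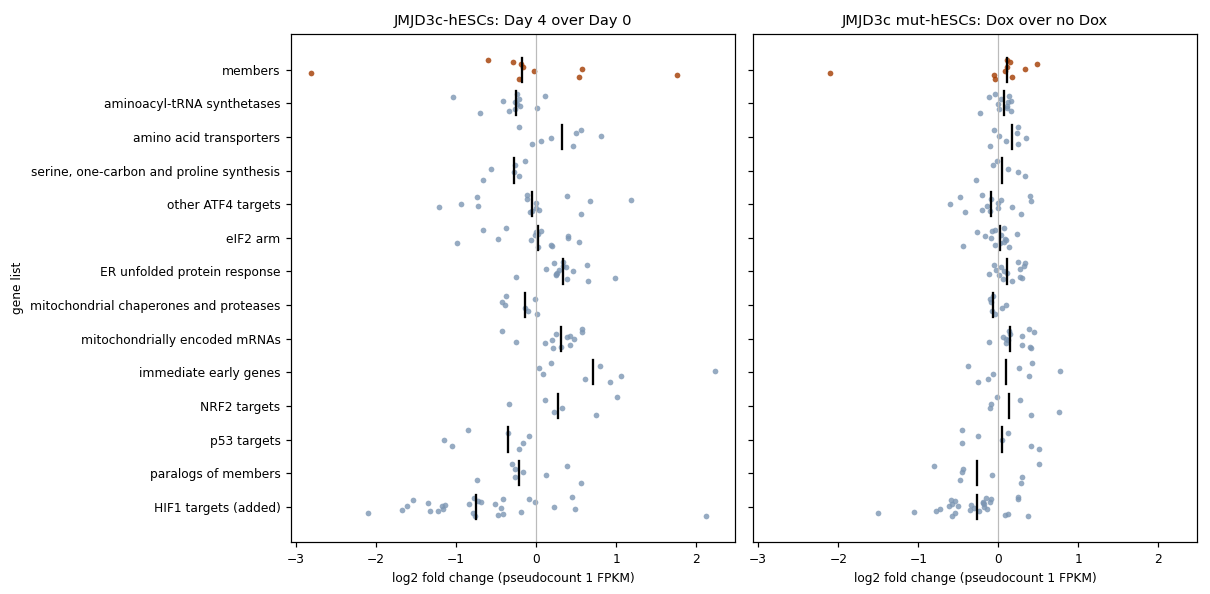
Log2 fold change with a pseudocount of 1 FPKM (horizontal axis) for each gene of the 10 members and the 13 other lists, cell type markers left out (rows), Day 4 over Day 0 in JMJD3c-hESCs on the left and Dox over no Dox in JMJD3c mut-hESCs on the right. Points are genes and black bars list medians, which run from -0.75 (HIF1 targets) to 0.70 (immediate early genes) on the left and from -0.27 to 0.17 on the right.

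DDIT4 is also a known target of HIF1, and a list of 28 HIF1 targets, written after the values were seen and not trimmed, was set beside it. At Day 4, 24 of 28 were below Day 0, 9 called lower and 1 higher, with a median log2 fold change of -0.75. Of all genes above 4 FPKM, 7.56% were called lower and 5.87% higher at Day 4, with a median of -0.06. With Dox in the mutant line 23 of 28 were below the untreated library, 2 called lower and 0 higher, with a median of -0.27. There 1.53% of all genes were called lower and 1.25% higher, with a median of 0.00. Any part of HIF1 in the DDIT4 values was not tested. BNIP3, a mitophagy receptor, was at 121.6, 93.1, 43.5, 35.2 and 27.6 FPKM on Days 0 to 4 and at 68.5 and 23.4 FPKM in the mutant line without and with Dox, called lower in both. PDK1, a kinase that holds back pyruvate oxidation, was the other gene called lower in the mutant line, at 9.86 and 4.22 FPKM. The glycolytic genes LDHA (733.4 to 238.4 FPKM) and PGK1 (572.8 to 252.1) were called lower at Day 4, and in the mutant line they were at 0.650 and 0.704 of the untreated level, intervals apart. ADM, the gene called higher at Day 4 (9.92 to 46.3 FPKM), was at 18.9 and 12.3 FPKM in the mutant line. The untreated mutant line was below Day 0 in 24 of the 28 genes (median -0.43), as it was for DDIT4.

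By Pearson correlation of log2(FPKM + 1) over the 7 libraries, among 9681 genes with a mean above 4 FPKM, the genes most like the mean of the 10 members were USF1 (0.97), BTN2A1 (0.97), NME1 (0.96), ZMAT2 (0.95) and CDV3 (0.95), and the most opposed were NEK2 (-0.97), AP1B1 (-0.95) and RECQL (-0.95). The members' mean was highest at Day 0 (5.08) and lowest at Day 2 (4.45). Most like DDIT4 alone, a comparison added after the values were seen, were FOXO4 (0.99), NONO (0.99), SOD2 (0.98), CEP250 (0.98) and PGK1 (0.97). The 23 HIF1 targets with a mean above 4 FPKM ran from the 5th place (PGK1, 0.97) to place 7453 (ADM, -0.35), with a median correlation of 0.81. The 7 points share lines, days and 1 Day 0 library, so these values are descriptions.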

How the data were processed

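Poly(A) RNA of the 7 cultures had been made into directional libraries and read on a MiSeq as 150-base reads from 1 end. Per the labels and the submitters' processing notes, the authors processed reads with CASAVA 1.4, TopHat2 2.0.13 and Cufflinks 2.1.1 against hg19. The deposited values are FPKM per gene with the 95% interval of each, 1 table per library, and the annotation and strand setting are not given in the sources used here. No counts were used, so depth was estimated from genes with 1 exon and 1 transcript. Their commonest FPKM step, corrected for length, was taken as 1 read, and 5 to 14 genes lay at it in each library. The estimated depth was 1770000 reads at Day 0, the lowest, and up to 3660000 reads. A few genes lay at a finer step, so that the true depth may be a multiple of these values, and read numbers are approximate.

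From the deposited FPKM, ratios, log2 fold changes with a pseudocount of 1 FPKM and calls (ratio over 2 or under 0.5, with over 4 FPKM in the higher library) were computed in Python 3.11.15 with pandas 2.3.3 and numpy 2.4.6, and figures drawn with matplotlib 3.10.9. Shares of genes called use genes on chromosomes above 4 FPKM in either library. The scripts were tested on simulated data. Members and lists were chosen with earlier results of these data known. Genes were named as follows: all members, up to 5 called genes per list in each main comparison by size of log2 fold change, and the 5 most and 3 least correlated genes. HSPA5, NUPR1, FGF21, LDHA, PGK1, KDM6B, KIAA0141, the HIF1 list and the genes like DDIT4 were added after values were seen. Alternatives were other pseudocounts (0.1 and 4), FPKM cutoffs (1 or none), interval separation, median-ratio scaling, the sum of entries, and other untreated or treated libraries.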

Additional observations from a re-analysis of the deposited data

Results flagged for a closer look

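For 6 members the log2 fold change had opposite signs in the 2 lines, with 1 library for each condition, and the differences between the lines were not tested. The values are the JMJD3c line (Day 4 over Day 0) minus the mutant line (Dox over no Dox). For DDIT3 the difference was 1.82, from 1.77 and -0.05, and it rested on about 2.6 reads at Day 0. PHGDH differed by -0.72 (-0.61 and 0.11), SESN2 by -0.68 (-0.20 and 0.48) and PSAT1 by -0.43 (-0.29 and 0.14). CHAC1 differed by -0.28 (-0.16 and 0.11) and ASNS by -0.12 (-0.03 and 0.09). For PHGDH, PSAT1, SESN2 and CHAC1 the sign in each line depended on which untreated library was the reference.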

How the results depend on the processing

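The counts of the mutant line kept their reported values under every alternative run. Its median log2 fold change, 0.11 as reported, was -0.18 with Day 0 as the untreated library and 0.10 to 0.12 under the other alternatives. At Day 4 the count of members called higher, 1 as reported, was 0 when intervals also had to be apart, 3 with the untreated mutant line as reference and 0 with Day 3 as the treated library. The count called lower, 1 as reported, was 2 with Day 3. The members' median log2 fold change at Day 4, -0.18 as reported, was 0.24 with the untreated mutant line as reference. The cause was not tested. Of 80 values of single members under the alternatives, 73 stayed within the range that the Cufflinks intervals of the reported pair allow and 7 left it, all with the other untreated library. That range is wide for low genes, and DDIT3 at Day 4 went from 1.77 to 1.09 with a pseudocount of 4 and to 2.21 with 0.1. DDIT4 was lower in each of them. FPKM cutoff and scaling left each count at its reported value. The calls use no pseudocount, so that setting does not bear on the counts. Each member name had 1 entry, so the sum of entries could not change them. With 1 library for each condition no library could be left out. No paired analysis was possible because there is 1 library for each condition. Depth limits DDIT3, TRIB3 and CHAC1 most.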
